A study of Mus musculus with 6 samples.

Results

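The genes described here were expressed almost wholly from one parental allele in the clonal B-cell line Abl.4 and from both alleles in its sister lines Abl.2 and Abl.3. For each gene the maternal share (the fraction of allelic counts at SNP positions that came from the maternal allele) was averaged over the libraries of a line. Autosomal genes outside chromosomes 4 and 10 with at least 20 allelic counts in each of 6 libraries were eligible. A gene was kept when its share was at most 0.1 or at least 0.9 in Abl.4 and lay from 0.3 to 0.7 in both Abl.2 and Abl.3. This left 30 genes, or 0.4% of the 7495 eligible genes, in a table of 19402. The genes were thus chosen by their allelic shares in all 6 libraries, so shares and the levels of single alleles are given below as a description and were not tested.

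The libraries came from immortalised B cells of F1 animals from a cross of 129S1/SvImJ with CAST/EiJ, whose strain differences let transcripts be assigned to a parent. Abl.2 and Abl.4 were female and Abl.3 was male. All lines were held in 1% DMSO, the solvent control, and sampled at day 2. Each line is 1 clone, and each had 2 libraries that the labels call library preparation replicates. Sister line means here another clone from this cross. The p-values below therefore measure the spread between library preparations only. Differences between the lines cannot be told apart from differences between the clones. Abl.3, being male, also came from another animal than Abl.2 and Abl.4, so differences from it cannot be told apart from those of sex or animal.

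In random autosomal monoallelic expression, a cell settles on the maternal or the paternal allele of a gene, or on both, and its descendants keep that state through division. Clones of the same genotype can then differ in which allele they use. The state differs from genomic imprinting, in which the parent of origin fixes the active allele in every cell, and from X inactivation, which acts on a whole chromosome.

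Allelic counts ranged from 18362319 to 26881211 per library. The median count of the 30 genes was 510 and 526.5 in the Abl.4 libraries and 769 to 946.5 in the others, against 874 to 1327 for the eligible genes. Intervals and floors on shares cover counting error only, because the libraries carry no molecular identifiers and PCR copies count again. The B-lineage label held in the data: 10 of 10 B-lineage markers, among them Cd79a and Pax5, were above 1 TPM (transcript abundance per length, relative to the whole library) in every library. Of 10 markers per list, 8 T-cell, 6 myeloid, 7 erythroid and 10 stromal markers were below 1 TPM in every library. Above 1 TPM in every library were Lyz2 (70.8 to 193 TPM), Ctss (82.2 to 134) and Cd68 (2.44 to 6.02) of the myeloid list, Tfrc (45.5 to 80.4) of the erythroid list and Lck (1.25 to 2.34) of the T-cell list. Cd5 of the T-cell list ranged from 1 to 6.03 TPM, and Alas2 and Gata1 of the erythroid list reached 1.5 and 1.24. Itgam, a myeloid integrin, stood at 6.89 and 6.74 TPM in Abl.4 and at 0.35 to 0.97 TPM in the other libraries, and its part in the results below was not tested.

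Promoter sequence is shown first for 4 of the best-covered genes, the pair with the most and the pair with the fewest CG dinucleotides in the promoter table (Arsb, with 18 CG, tied with Fbxo31). CG is the site of DNA methylation in mammals, and CG-rich promoters are typical of broadly expressed genes. CG were counted in the 250 bases before the RefSeq start on GRCm38.p6, read on the gene's strand. The RefSeq start lay 67 bases downstream of the GENCODE start for Kif16b and 27 bases downstream for Mvp, so for these genes only the 183 and 223 bases before both starts are printed, with every CG in capitals. Kif16b, a kinesin that carries early endosomes, has 22 CG in the window, 18 of them in the printed stretch at chr2:142901532-142901714 on the minus strand. Fbxo31, the substrate-binding part of an SCF ubiquitin ligase, has 18 CG at chr8:121578807-121579056 on the minus strand. Xrcc5, the Ku80 subunit that binds DNA ends in end joining and V(D)J recombination, has 5 CG at chr1:72307171-72307420 on the plus strand. Mvp, the major protein of vault particles, has 3 CG in the window, 2 of them in the printed stretch at chr7:127014622-127014844 on the minus strand.
Kif16b: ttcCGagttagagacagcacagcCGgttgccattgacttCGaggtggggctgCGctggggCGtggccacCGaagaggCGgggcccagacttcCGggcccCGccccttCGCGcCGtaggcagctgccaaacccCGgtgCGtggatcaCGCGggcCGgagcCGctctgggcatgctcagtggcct
Fbxo31: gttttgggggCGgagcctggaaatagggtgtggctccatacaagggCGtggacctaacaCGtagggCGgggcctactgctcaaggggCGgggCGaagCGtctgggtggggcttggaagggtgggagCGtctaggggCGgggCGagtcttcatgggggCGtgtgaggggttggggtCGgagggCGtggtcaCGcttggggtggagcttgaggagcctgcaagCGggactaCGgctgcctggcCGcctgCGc
Xrcc5: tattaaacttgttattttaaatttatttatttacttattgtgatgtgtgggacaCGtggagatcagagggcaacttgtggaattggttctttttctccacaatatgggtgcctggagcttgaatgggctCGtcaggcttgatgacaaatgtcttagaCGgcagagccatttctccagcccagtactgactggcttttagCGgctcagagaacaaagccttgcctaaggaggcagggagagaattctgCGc
Mvp: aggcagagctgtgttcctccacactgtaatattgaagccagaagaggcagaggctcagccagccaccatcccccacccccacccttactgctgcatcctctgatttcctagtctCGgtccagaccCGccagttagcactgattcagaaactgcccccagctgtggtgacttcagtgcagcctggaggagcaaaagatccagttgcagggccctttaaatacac

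Kif16b and Fbxo31 were thus CG-rich and Xrcc5 and Mvp CG-poor, and all 4 met the share limits in every single library. Over the set, 22 of 30 genes matched an entry of the promoter table. Their median was 12 CG per promoter, against 17 over the 5907 eligible genes that matched. CG was searched as the letters CG, which read the same on both strands. At least 1 CG was present in 21 of the 22 and in 99.2% of eligible promoters, and at least 10 CG in 12 (54.5%) and in 78.3%. Genes monoallelic only in Abl.2 had a median of 17 CG (n = 71) and those monoallelic only in Abl.3 a median of 14 (n = 28). These counts are a description of sequence, and CG methylation was not measured.

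**Figure D1:**
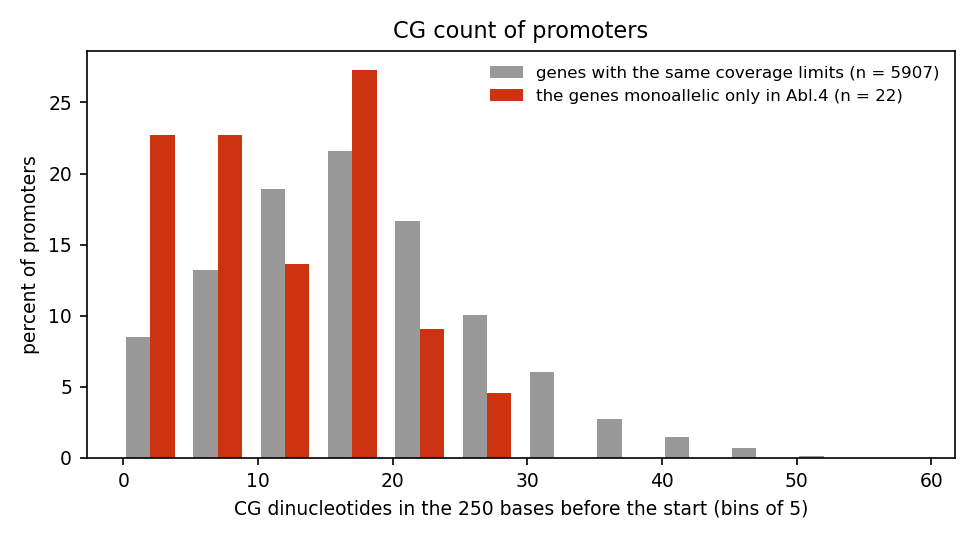
Share of promoters (percent, vertical axis) by the number of CG dinucleotides in the 250 bases before the RefSeq start (bins of 5, horizontal axis). Red bars are the 22 matched genes monoallelic only in Abl.4 (median 12) and grey bars the 5907 matched eligible genes (median 17).

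In Abl.4, 23 of the 30 genes were expressed from the paternal allele. The other 7, among them Kif16b, Spg20, Epop, Il10ra, Cln3 and Pea15a, were expressed from the maternal allele. The silent allele gave a mean share of at most 0.01 in 11 genes, at most 0.02 in 17 and at most 0.05 in 22. In Abl.2 the maternal share had a median of 0.470 and ranged from 0.312 to 0.622. In Abl.3 the median was 0.479 and the range 0.334 to 0.666. The rule itself required a share from 0.3 to 0.7 in both sister lines. Within that range, 23 genes lay from 0.4 to 0.6 in Abl.2, 21 in Abl.3 and 16 in both. The allele expressed in Abl.4 was also the more abundant allele in 21 genes in Abl.2, in 18 in Abl.3 and in 14 in both.

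**Figure D2:**
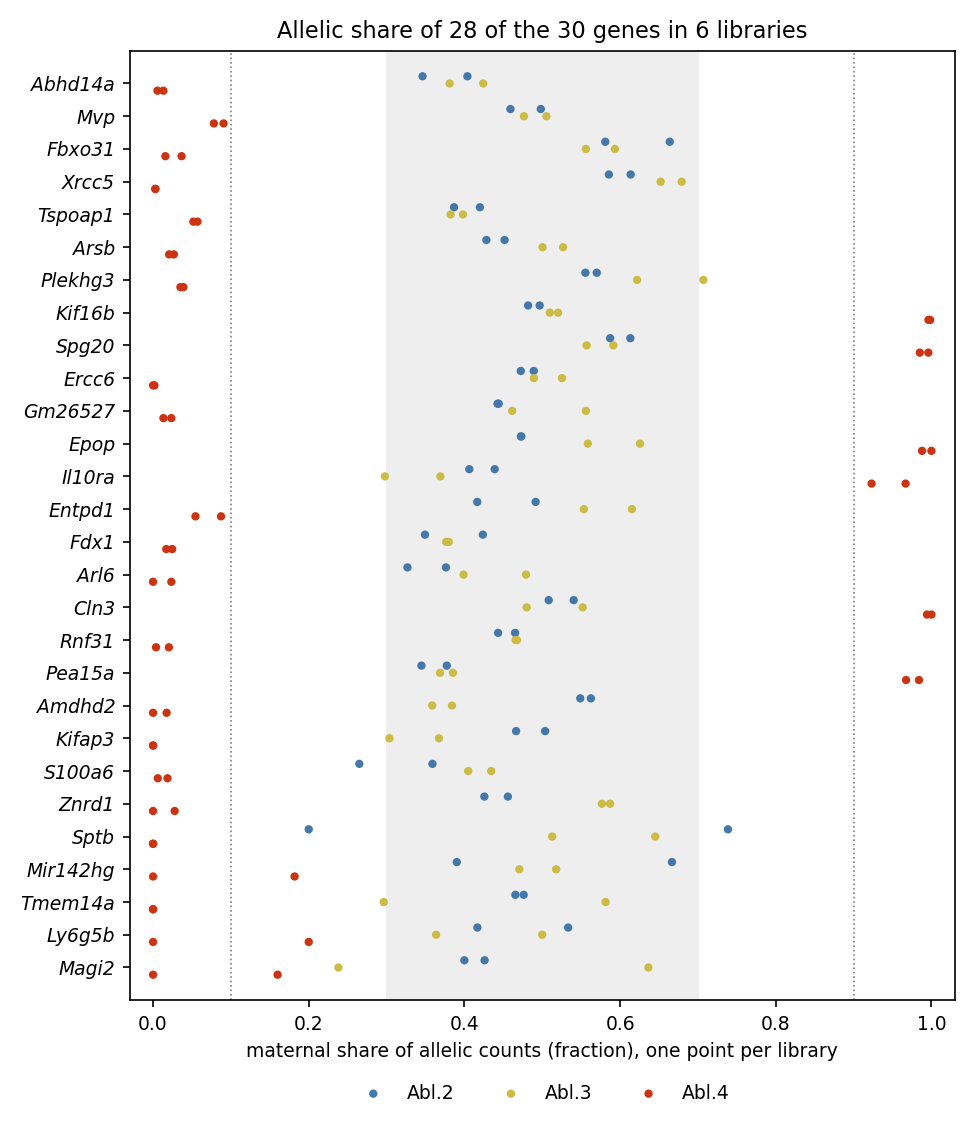
Maternal share of allelic counts (horizontal axis, 0 to 1) of 28 of the 30 genes, with 1 point per library coloured by line. In Abl.4, 22 of them lie at the paternal and 6 at the maternal end, and line means of Abl.2 and Abl.3 lie between 0.312 and 0.666.

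The genes are ordered below by known role, a grouping made from their names that was not tested. Xrcc5 (chr1:72307421-72394952, GRCm38, plus strand) had maternal shares of 0.614 and 0.586 in Abl.2, 0.652 and 0.679 in Abl.3, and 0.00296 and 0.00283 in Abl.4. The Abl.4 libraries held 3 maternal counts each, of 1014 and 1059 counts, with upper 95% Wilson limits of 0.00866 and 0.0083. The maternal allele, the more abundant one in both sister lines, was thus almost missing in Abl.4. Xrcc5 was the only one of the 30 genes on a DNA repair list of 33 genes, of which 28 were covered. Ercc6 (chr14:32513521-32580990, plus strand), whose product CSB acts in transcription-coupled repair, was not on that list. Its share was 0.472 and 0.489 in Abl.2, 0.489 and 0.525 in Abl.3, and 0 and 0.00178 in Abl.4. The Abl.4 values rest on 0 of 516 and 1 of 561 counts, and 0 counts of 516 allow a share of up to 0.00581, taken here and for every later 0 as 3 counts over the total (the upper Wilson limit is 0.00739).

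Kif16b (chr2:142617474-142901531, minus strand) had shares of 0.482 and 0.497 in Abl.2, 0.520 and 0.510 in Abl.3, and 0.996 and 0.998 in Abl.4, where 3 of 788 and 1 of 621 counts were paternal. Kifap3, which links kinesin-2 to its cargo and acts in cilia, went the other way, with shares of 0.504 and 0.466 in Abl.2 and 0.367 and 0.304 in Abl.3. It had 0 maternal counts of 288 and of 280 in the Abl.4 libraries, which allow shares of up to 0.0104 and 0.0107. Kif16b used the maternal and Kifap3 the paternal allele. Spg20, which encodes spartin, had shares of 0.613 and 0.587 in Abl.2, 0.557 and 0.591 in Abl.3, and 0.996 and 0.985 in Abl.4. Arl6, a small GTPase of the cilium, was paternal in Abl.4 with a mean share of 0.0117. Plekhg3, an exchange factor for small GTPases, had shares of 0.555 and 0.570 in Abl.2, 0.622 and 0.707 in Abl.3, and 0.0390 and 0.0352 in Abl.4. Its second Abl.3 library was thus just above the limit of 0.7.

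Fbxo31 and Rnf31, which are both parts of ubiquitin ligases, were among the 23 paternal genes. Fbxo31 (chr8:121549440-121578806, minus strand) had shares of 0.581 and 0.664 in Abl.2, 0.593 and 0.556 in Abl.3, and 0.0158 and 0.0367 in Abl.4, from 22 of 1393 and 49 of 1336 maternal counts. Rnf31, the catalytic subunit HOIP of the linear ubiquitin assembly complex that feeds NF-kappaB signalling, had shares of 0.443 and 0.465, then 0.468 and 0.466, and in Abl.4 0.0038 and 0.0203. In both genes the Abl.4 libraries lay far below the other 4. Both loci overlap another covered gene that stayed near balance in Abl.4, Gm20388 with a share of 0.496 for Fbxo31 and Irf9 with 0.536 for Rnf31.

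Il10ra, the ligand-binding chain of the interleukin-10 receptor, had shares of 0.439 and 0.406 in Abl.2, 0.369 and 0.298 in Abl.3, and 0.923 and 0.967 in Abl.4. Entpd1, the ectonucleotidase CD39 that breaks down extracellular ATP, had mean shares of 0.454 (Abl.2), 0.584 (Abl.3) and 0.0709 (Abl.4). Il10ra was maternal and Entpd1 paternal in Abl.4. Pea15a, an adaptor that binds ERK, had shares of 0.345 and 0.377, then 0.385 and 0.369, and in Abl.4 0.984 and 0.967.

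Mvp (chr7:126986860-127014621, minus strand) had shares of 0.459 and 0.498 in Abl.2, 0.505 and 0.477 in Abl.3, and 0.0906 and 0.0781 in Abl.4. The first Abl.4 library of Mvp held 146 maternal counts of 1612, with a Wilson interval of 0.0775 to 0.106 that spans the limit of 0.1. Mvp was thus among the less complete biases of the well-covered genes. Arsb (chr13:93771630-93943016, plus strand), the lysosomal arylsulfatase B, had shares of 0.428 and 0.452, then 0.5 and 0.527, and in Abl.4 0.0268 and 0.0207. Cln3, a lysosomal membrane protein, was maternal in Abl.4 with 0 paternal counts of 221 and 2 of 356. Fdx1, a mitochondrial ferredoxin, and Amdhd2, a deacetylase of amino sugar metabolism, were paternal with mean shares of 0.0207 and 0.00871. Abhd14a (chr9:106440051-106447678, minus strand), an alpha/beta hydrolase domain gene, was the best covered, with 2698 counts per library on average. Its shares were 0.346 and 0.404 in Abl.2, 0.424 and 0.381 in Abl.3, and 0.00567 and 0.0133 in Abl.4.

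Epop (chr11:97627389-97629702, minus strand), a partner of Polycomb repressive complex 2, had shares of 0.473 in each Abl.2 library, 0.559 and 0.626 in Abl.3, and 0.988 and 1 in Abl.4. Znrd1, a subunit of RNA polymerase I, was paternal in Abl.4, with 2 maternal counts of 72 and 0 of 64. At this depth, 0 of 64 counts allow a maternal share of up to 0.0469. The calcium-binding S100a6 had shares of 0.359 and 0.265 in Abl.2, 0.405 and 0.434 in Abl.3, and 0.0061 and 0.0185 in Abl.4. The remaining genes were Tspoap1, Sptb, Magi2, Tmem14a, Ly6g5b and the non-coding Gm26527 and Mir142hg. The 28 protein-coding genes were 93.3% of the set, against 98.5% of eligible genes.

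The share limits were met in every single library by 22 of the 30 genes. The other 8 were Plekhg3, Il10ra, S100a6, Sptb, Mir142hg, Tmem14a, Ly6g5b and Magi2, and 5 of these averaged under 100 counts per library. Sptb, erythroid beta-spectrin, had shares of 0.200 and 0.739 in Abl.2 from 60 and 88 counts, and 0 maternal counts of 34 and 37 in Abl.4. Its balance in Abl.2 was thus an average of opposite values. Magi2, a synaptic scaffold gene, had shares of 0.238 and 0.636 in Abl.3 and 0 and 0.160 in Abl.4, from 22 to 54 counts per library. Ly6g5b had 0.200 and 0 in Abl.4, and Mir142hg 0.182 and 0, so in each the first library was outside the limit and the second within it.

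As a description of the spread between library preparations of the same clone, which does not support the set independently, the rule was also read in single libraries. Choosing the genes on the first library of each line gave 29 genes, all of which were covered in the second libraries. Of these, 26 were beyond the Abl.4 limit on the same side in the second library, and 22 (75.9%) also met the limits for Abl.2 and Abl.3. Choosing on the second libraries gave 32 genes, of which 29 were covered in the first, 25 lay beyond the Abl.4 limit and 22 met all limits. In the authors' deposited table of allelic imbalance, 25 of the 30 genes had an Abl.4 estimate. Its intervals rest on the libraries that chose the genes, so they are no independent evidence and are not counted here.

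At the limits, Ly6g5b at 0.100 and Mir142hg at 0.0909 were just inside 0.1, and Fmo5 at 0.107 and Zfp493 at 0.121 just outside. Il10ra at 0.945 was near the inside of 0.9, and Cmah at 0.886 and Wwc2 at 0.863 nearest outside. For the sister lines, S100a6 at 0.312 and Il10ra at 0.334 were nearest inside 0.3, with Cyp39a1 at 0.296 and Mfsd14b at 0.259 outside. Xrcc5 at 0.666 and Plekhg3 at 0.664 were nearest inside 0.7, with Zfp229 at 0.719 and Tnfrsf21 at 0.745 outside.

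Allele levels show what remained of each transcript, as a description that uses the shares of the rule. Levels are CPM, counts scaled to the total of autosomal allelic counts outside chromosomes 4 and 10. Over the 30 genes, the level of both alleles together in Abl.4 was a median of 0.624 of the mean of the sister lines, with quartiles of 0.486 and 0.727. The expressed allele alone had a median ratio of 1.10, with quartiles of 0.942 and 1.34, and was within 1.5-fold for 26 of 30 genes (86.7%). Against Abl.2 the median ratio of the expressed allele was 1.01, with 5 genes outside 1.5-fold, and against Abl.3 it was 1.15, with 11 outside, so the averaged sister lines hide part of the spread. For 6084 genes that were balanced in all 3 lines, the corresponding medians were 0.989 for both alleles together, 0.999 for the maternal and 0.982 for the paternal allele, of which 87.2% and 87.5% were within 1.5-fold. Against the mean of the sister lines, the share within 1.5-fold was thus close to that of balanced genes. For balanced genes no such share is given against Abl.2 or Abl.3 alone.

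The paternal allele of Fbxo31 stood at 67.1 ± 15.5 CPM (SD, n = 2) in Abl.2, at 70.3 ± 4.59 in Abl.3, and at 77.9 ± 3.52 in Abl.4. Its maternal allele stood at 110 ± 1.84, 95 ± 4.04 and 2.08 ± 1.12. The expressed allele of Fbxo31 thus held its level while the other was nearly missing. For Xrcc5 the paternal allele stood at 83.0 ± 10.5, 32.1 ± 5.44 and 60.6 ± 1.84, which placed Abl.4 between its sister lines. The expressed allele was outside 1.5-fold of the mean of the sister lines for 4 genes. It was 3.12 times the mean of the sister lines for Pea15a and 1.67 times for Il10ra, and 0.442 times for Epop and 0.621 times for Mir142hg. The expressed allele of Pea15a stood at only 0.709 CPM in Abl.2, against 19.2 in Abl.3 and 31.1 in Abl.4. For Epop the maternal allele stood at 33.3 ± 5.02 CPM in Abl.2, against 40.7 ± 0.535 for Abl.3 and 16.4 ± 4.15 for Abl.4, so that both alleles were lower in Abl.4.

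**Figure D3:**
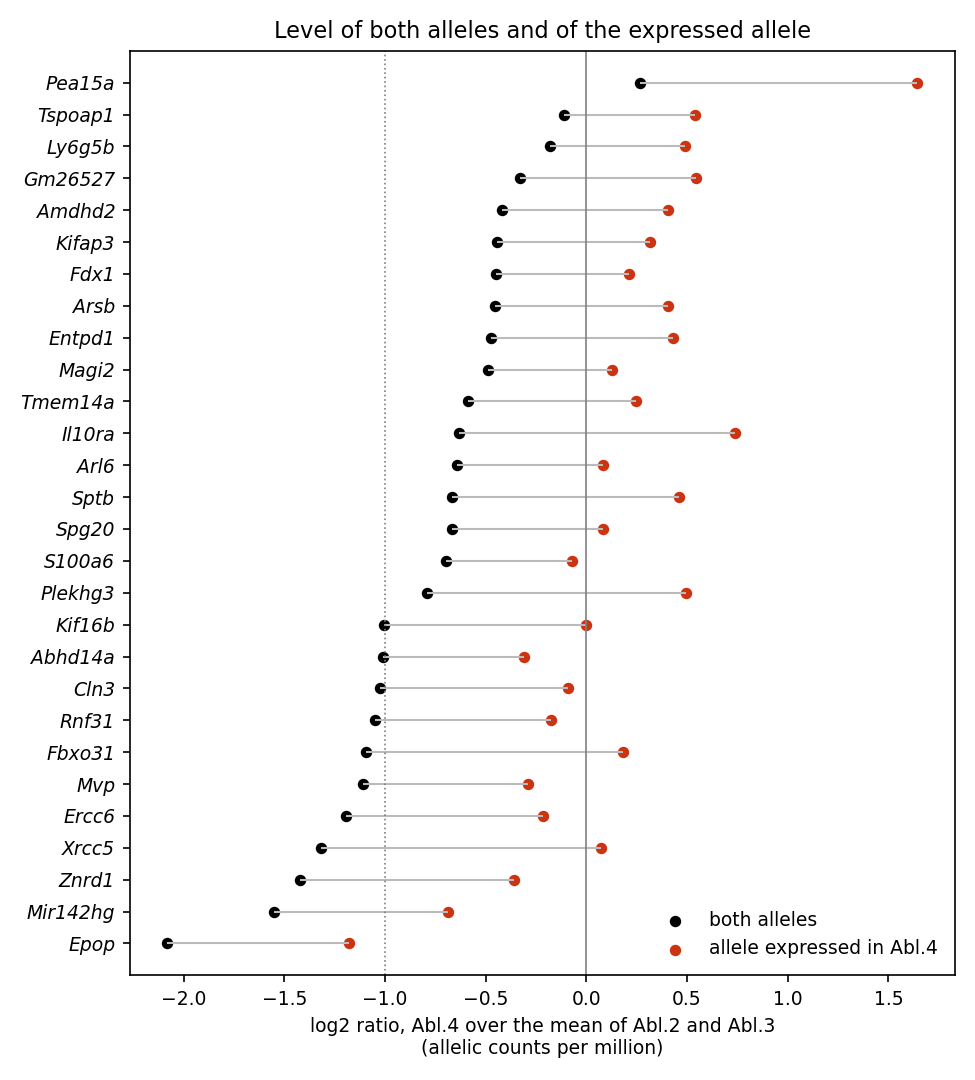
Log2 ratio of Abl.4 over the mean of Abl.2 and Abl.3 for the expressed allele and for both alleles together, for 28 of the 30 genes, from CPM. Most expressed-allele points lie near 0 (median ratio 1.10 over all 30) and the points for both alleles lie lower (median ratio 0.624), with the dotted line marking a log2 ratio of -1.

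Total transcript abundance was then compared between the lines, which asks whether the transcripts were also less abundant in the line with 1 active allele. Most of the tested genes were lower in Abl.4. The share limits did not use abundance, but the coverage minimum used the same libraries, and loss of an allele lowers the total wherever the other allele keeps its level. Of the 30 genes, 26 were tested by limma on log2(TPM + 1), a scale that understates differences of low genes. Gm26527 was not in the abundance table, and Sptb, Tmem14a and Magi2 averaged under 1 TPM. Against Abl.2, 17 genes were lower in Abl.4 (65.4%, against 15% of the 11003 genes tested) and 2 were higher (against 18.4%), Pea15a and Mir142hg. Their median log2 difference was -0.83, against 0.03 over all genes. Against Abl.3, 14 were lower (53.8%, against 11.3%) and 1 was higher (against 26.8%), with a median of -0.47 against 0.15. Both comparisons share the Abl.4 libraries. In bulk RNA, fewer cells with a transcript and less of it per cell cannot be told apart.

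Abundance was lower in Abl.4 than in each sister line for 12 genes, against 4.84% of all genes tested, and higher than in each for 0 (limma), against 10.2%. At an adjusted p under 0.05 these 12 were Abhd14a, Mvp, Fbxo31, Xrcc5, Plekhg3, Spg20, Ercc6, Epop, Fdx1, Rnf31, S100a6 and Znrd1. Both Abl.4 libraries lay below all 4 others in 15 of the 26 genes, against 12.9% of all genes, and above them in 0, against 23.7%. The count of 14 against Abl.3 fell to 7 without the first and 6 without the second Abl.3 library, and to 9 when only Abl.3 and Abl.4 were fitted. Of the 12 genes, 6 kept both calls when either Abl.3 library was left out and 7 with only the lines compared. Abhd14a, Fbxo31, Epop and Znrd1 kept both calls at the adjusted p alone under every alternative fit run, but only Epop and Znrd1 also differed by at least 1 on the log2 scale from each sister line. The other 8 lost a call, or were no longer tested, under at least 1. Spg20, Plekhg3, Ercc6 and Rnf31 lost the call against Abl.3 without either Abl.3 library. That of Spg20 also ended when any single library of the other lines was left out (-0.35 to -0.31) and with only the lines compared. That of Plekhg3 also ended with no filter, with only the lines compared, and without either Abl.2 library (-0.45) or the second Abl.4 library (-0.37). Rnf31 lost a call in 9 settings, and its difference from Abl.3 was -0.28 without the first Abl.4 library, from -0.55. Rnf31 also lost the call against Abl.2 without either Abl.2 library (0.0726 and 0.0595). Fdx1 differed from Abl.2 by -0.44 with limma, and by -0.16 with edgeR (adjusted p = 0.388) and -0.17 with DESeq2 (0.464). Within limma this call also ended without the first Abl.2 library (-0.32) and without the first (-0.42) or second Abl.4 library (-0.45).

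Against the mean of the sister lines, Epop showed the largest fall of the 12 (-1.77), and against Abl.3 Znrd1 and Epop fell by amounts that differed by less than their SE. The TPM of Epop was 29.7 and 22.3 in Abl.2, 25.2 and 21.7 in Abl.3, and 7.43 and 5.67 in Abl.4. The log2 difference was -1.83 (SE 0.18, limma adjusted p = 0.000609) against Abl.2 and -1.70 (SE 0.18, adjusted p = 0.000910) against Abl.3. Epop was thus low in both Abl.4 libraries with no overlap. Znrd1 had TPM of 130 and 145 in Abl.2, 187 and 180 in Abl.3, and 60.4 and 50.4 in Abl.4. Its differences were -1.30 (SE 0.11, limma adjusted p = 0.000288) and -1.71 (SE 0.11, adjusted p = 0.000106).

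Xrcc5 had TPM of 36.1 and 38.4 in Abl.2, 16.9 and 15.5 in Abl.3, and 10.4 and 12.2 in Abl.4, in 3 separate bands with Abl.4 lowest. It fell by 1.64 against Abl.2 (log2, SE 0.11, limma adjusted p = 0.000130) and by 0.49 against Abl.3 (adjusted p = 0.0172). Mvp had TPM of 51.6 and 45.5, then 27.7 and 24.9, and in Abl.4 19.9 and 15.2, with log2 differences of -1.43 and -0.57. Fbxo31 went from 19.4 and 17.4 in Abl.2 and 16.6 and 16.7 in Abl.3 to 9.33 and 7.72 in Abl.4, or -1.03 and -0.89. S100a6 had 22.2 and 24.3, then 16.9 and 20.8, and in Abl.4 10.5 and 10.6, or -1.07 and -0.78. In each of these genes the Abl.4 libraries were the lowest of the 6. The call of Xrcc5 against Abl.3 was lost with only the lines compared (adjusted p = 0.0501) and without either Abl.3 library (0.0996 and 0.0572) or the first Abl.4 library (0.0595). That of Mvp was lost with only the lines compared (0.0517), with no filter (0.0555) and without either Abl.3 library (0.128 and 0.0716) or the second Abl.4 library (0.0894), and that of S100a6 on summed allelic counts with edgeR (0.057) and DESeq2 (0.0676).

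Other genes were called against 1 sister line alone. Arsb, Kif16b, Entpd1 and Cln3 were called lower against Abl.2 and not called against Abl.3, and Il10ra the reverse. The call of Cln3 ended with no filter (limma adjusted p = 0.0567) and when either Abl.2 library was left out (0.120 and 0.0692), and that of Entpd1 without the first Abl.2 library (0.0566). The call of Il10ra ended when either Abl.3 library (0.0984 and 0.0747) or the second Abl.4 library (0.0659) was left out. Kif16b, for example, had TPM of 11.7 and 14.0 in Abl.2, 7.14 and 6.75 in Abl.3, and 6.11 and 5.33 in Abl.4. Its difference was -1.04 (SE 0.14, limma adjusted p = 0.00205) from Abl.2 and -0.24 (SE 0.14, adjusted p = 0.206) from Abl.3, which expressed both alleles. Tspoap1 was higher in Abl.4 than in Abl.3 by 0.34 (SE 0.08, limma adjusted p = 0.0192). That call ended in limma after TMM scaling (0.20, adjusted p = 0.0947) and after quantile scaling (0.23, 0.0643). On summed allelic counts the difference was 0.16 with edgeR (adjusted p = 0.288) and 0.15 with DESeq2 (0.382). The call of Tspoap1 also ended without either Abl.3 library (0.40 and 0.29) or the first Abl.4 library (0.29). The 5 genes with no call against either line included Arl6, Amdhd2, Kifap3 and Ly6g5b.

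Pea15a was chosen here after its values were seen, because it was the exception. Its TPM was 1.15 and 1.14 in Abl.2, 33.0 and 32.7 in Abl.3, and 23.2 and 20.5 in Abl.4. It was higher in Abl.4 than in Abl.2 by 3.41 (SE 0.11, limma adjusted p = 8.70e-06) and lower than in Abl.3 by -0.57 (SE 0.11, adjusted p = 0.00984). Without either Abl.3 library the difference from Abl.3 was not called (limma adjusted p = 0.0639 and 0.0595). The Abl.2 shares of Pea15a rest on 29 and 53 counts. Mir142hg, the host transcript of miR-142, is listed at 0 TPM in both Abl.2 libraries although 41 and 33 allelic counts were recorded there, so the call of Mir142hg against Abl.2 rests on listed zeros and no fold from TPM is given for it.

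**Figure D4:**
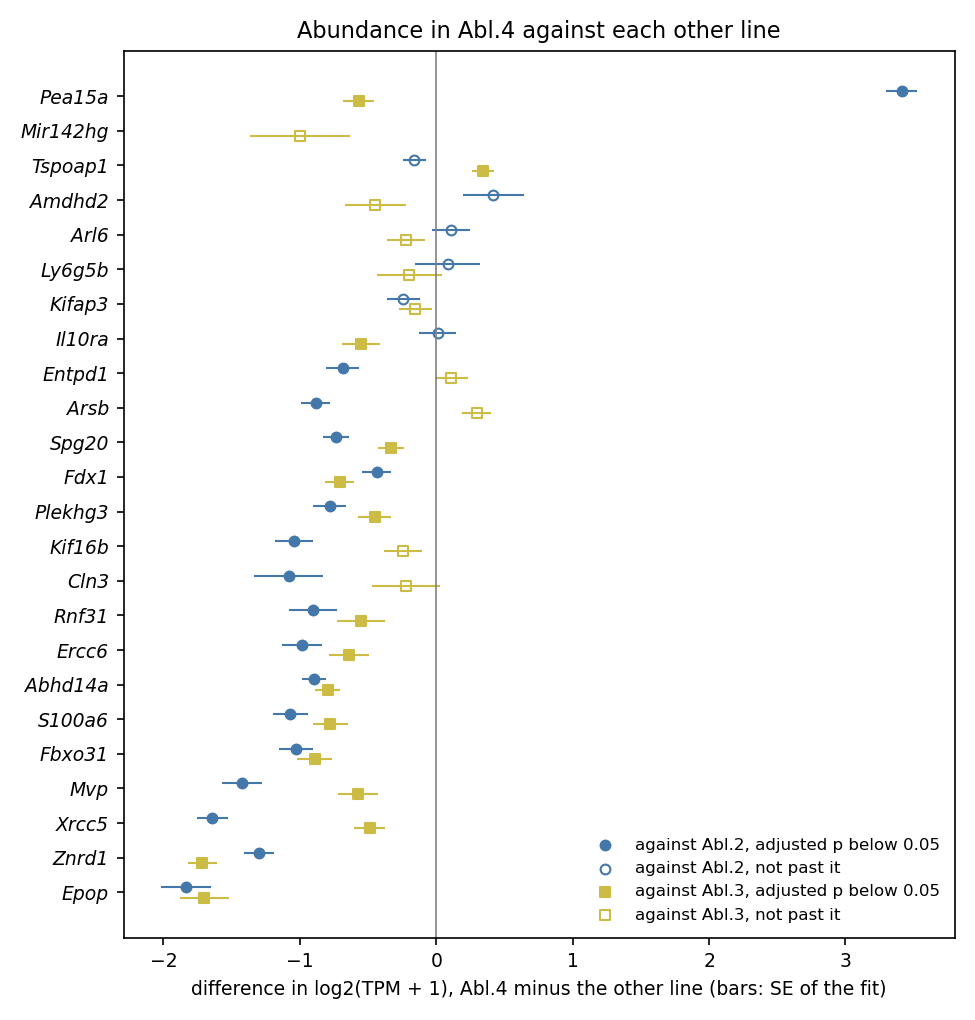
Log2(TPM + 1) difference of Abl.4 from Abl.2 and from Abl.3 for 24 of the 26 tested genes, with standard errors from limma. Mir142hg against Abl.2 is left out because it is listed at 0 TPM there, and 12 genes were called lower against both lines.

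The same description for genes biased in a sister line is set beside these values, with no test of the difference. Each biased line was compared with the mean of the other lines. Among genes monoallelic only in Abl.4, 15 of 26 were lower and 1 higher, against 12.2% and 22.8% of all genes, with a median of -0.55. Among 89 tested genes monoallelic only in Abl.2, 73 were lower and 5 higher in Abl.2, against 16.4% and 20.8%, with a median of -0.86. Among 40 tested genes monoallelic only in Abl.3, 28 were lower and 4 higher in Abl.3, against 28.6% and 12.5%, with a median of -0.93. The Abl.4 set was also the smallest, with 30 genes against 90 and 41.

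The 30 genes lay on 14 chromosomes, with at most 4 on any (chromosomes 1 and 9). Around them, 441 eligible genes within 1 Mb were not in the set. Of these, 381 (86.4%) had a share from 0.3 to 0.7 in Abl.4, against 89.1% of all eligible genes, and 15 (3.40%) lay beyond 0.1 or 0.9, against 3.84%. Among the 54 nearest covered genes on either side, 40 (74.1%) were balanced in Abl.4. Of the other 14, 8 were also outside 0.3 to 0.7 in both sister lines. Dcaf8, which overlaps Pea15a, had a share of 0.507 in Abl.4 beside 0.976 for Pea15a. Abhd14b, which overlaps Abhd14a, had 0.0038 in Abl.4 but was already skewed in Abl.2 (0.143) and Abl.3 (0.112).

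In 4 pairs, both genes of the set lay within 1 Mb of each other. Mir142hg and Tspoap1 on chromosome 11 were 3.27 kb apart, and both were paternal in Abl.4. Tspoap1 had shares of 0.387 and 0.420 in Abl.2, 0.382 and 0.398 in Abl.3, and 0.0517 and 0.0571 in Abl.4. Plekhg3 and Sptb on chromosome 12 overlap at their ends on opposite strands, and both were paternal. Gm26527 lies within Arsb on the opposite strand, with Abl.4 shares of 0.0235 and 0.0133, and since the use of strand in counting is not stated, its counts and those of Arsb cannot be told apart. Cln3 and Mvp on chromosome 7 were 401 kb apart and were expressed from opposite alleles, Cln3 from the maternal and Mvp from the paternal one.

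**Figure D5:**
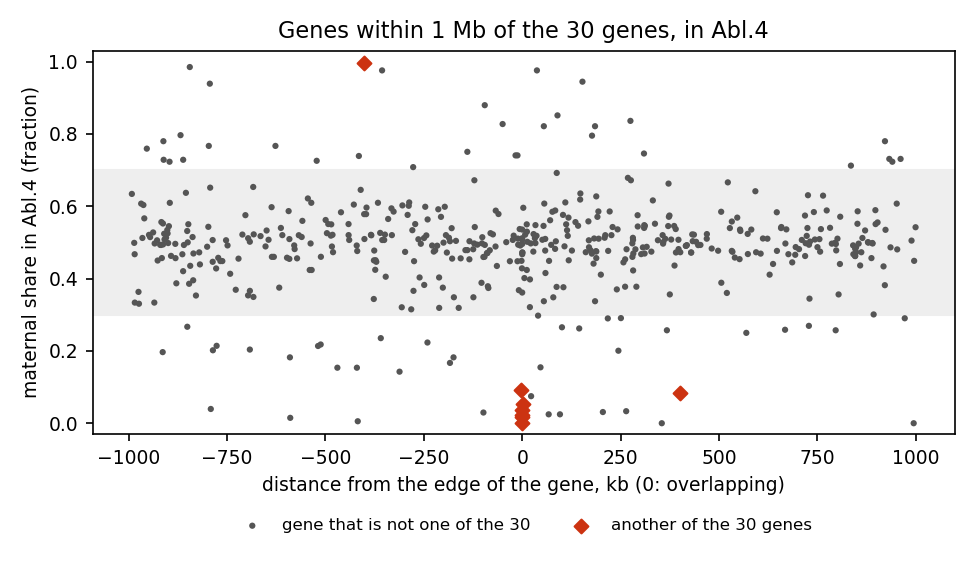
Maternal share in Abl.4 (vertical axis) of eligible genes within 1 Mb of the 30 genes, by distance (horizontal axis), with the band from 0.3 to 0.7 in grey. Of 441 surrounding genes, 381 lie in the band.

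Of the other lists compared, none of the 30 genes was a listed B-lineage regulator (11 covered), a B-lineage surface or pre-B receptor gene (18 covered) or a listed signalling kinase or adaptor (13 covered). The lists of interferon response (13 covered), DNA methylation (9), cell cycle (16), apoptosis (12), imprinted (7) and adhesion genes (16) also held 0. Of name-based families, 0 of 202 zinc finger genes with a Zfp symbol, 0 of 124 solute carriers, 0 of 60 ribosomal protein genes, 1 of 94 Tmem genes (Tmem14a) and 1 of 331 genes with Gm or Rik names (Gm26527) were in the set. Over all eligible genes the share in the set was 0.4%.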

How the data were processed

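RNA-seq of 6 libraries was analysed, 2 per line, grouped by the line and replicate number in their titles. The authors' allele table holds counts of the maternal and paternal allele at SNP positions, per the file headers. Abundance was deposited by the authors as TPM from DESeq2, as a header line says, so its depth is unknown. The third table holds the authors' maternal fraction with limits, replicates averaged, per the file headers. The submitters' processing notes name STAR 2.5.4a, SAMtools, GATK and DESeq2, and GRCm38. Libraries were made with SMART-seq v4, per the labels' protocols. Whether a read over several SNPs was counted once is not stated, nor is the use of strand. Alleles are named by parent, as in the tables, without the strain.

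Shares were averaged over a line's libraries, with 95% Wilson intervals per library and, for 0 counts, a limit of 3 counts over the total. Abundance was tested with limma 3.58.1 (R 4.3.3, lmFit and eBayes with trend) on log2(TPM + 1), pseudocount 1, over 11003 genes with a mean TPM of at least 1 and all 6 libraries in 1 fit. Benjamini-Hochberg adjusted p under 0.05 was called. edgeR 4.0.16 and DESeq2 1.42.0 on summed allelic counts were alternatives, as were other pseudocounts, filters, scalings, a replicate block and leaving out each library. On simulated data limma recovered 58.5% of 200 genes changed by 1 log2 unit against Abl.2, 61.5% against Abl.3 and 74% against their mean, among 11003 genes. The genes and lists were chosen with earlier results of these data known. Genes were named for coverage (the 12 best covered), for the largest falls in both comparisons, for being on a list, for lying nearest a limit or for having another gene of the set within 1 Mb. Others are named to account for the set. Genes not named are not reported here, though they are in all counts. Gene positions are those of the authors' tables, and all 30 starts equal those of GENCODE M21, while promoter windows use RefSeq starts.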

Additional observations from a re-analysis of the deposited data

How the results depend on the processing

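The number of genes was 30, ranged from 29 to 35 with a replicate or library left out, and was 16 when the sister lines had to lie from 0.4 to 0.6. The count lower against Abl.2 (17) was 9 with a log2 change of at least 1, and 13 to 17 with a library left out. That against Abl.3 (14) was 2 with a log2 change of at least 1, 9 with only the lines compared, and 6 to 11 with a library left out, lowest without either Abl.3 library. That against the mean (15) was 3 with a log2 change of at least 1 and 12 to 14 with a library left out. The count higher against Abl.2 (2) was 1 with edgeR or DESeq2 and 2 to 3 with a library left out. That against Abl.3 (1) was 0 with quantile or TMM scaling, edgeR, DESeq2 or a log2 change of at least 1, and 0 to 1 with a library left out. That against the mean (1) was 2 with a pseudocount of 0.1, a mean TPM of at least 5 or the replicate block, and 1 to 2 with a library left out.

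The median difference from Abl.2 (-0.83) was -0.58 with a pseudocount of 5, -0.74 with no filter, -0.94 with quantile scaling and -0.85 to -0.71 with a library left out. That from Abl.3 (-0.47) was -0.51 and -0.34 with pseudocounts of 0.1 and 5, -0.76 with quantile scaling, -0.61 with TMM, -0.65 with edgeR and with DESeq2, and -0.50 to -0.42 with a library left out. The median of all genes there was 0.15 as deposited and 0.01 after TMM. The median difference from the mean (-0.55) was -0.43 with a pseudocount of 5 and with no filter, -0.72 with quantile scaling, -0.64 with TMM, -0.66 with edgeR and with DESeq2, and -0.56 to -0.46 with a library left out. Arl6 against Abl.2 reversed from 0.11 to -0.37 with edgeR. Mir142hg reversed against Abl.2 to -0.49 with edgeR and -0.50 with DESeq2, and against the mean to -1.32 and -1.33, where the positive values on log2(TPM + 1) rest on 0 TPM in Abl.2 and are no fold. The cause of these changes was not tested.

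With the replicate number as a block, 17, 15 and 15 genes were lower against Abl.2, Abl.3 and the mean. Same-numbered libraries deviated together with correlations of 0.19 and 0.16 across genes, but the 2 numbers are not stated to mark a shared batch. Added after the data were seen, the count higher against Abl.2 was 1 among genes within limits in every library and 0 among genes with at least 100 counts in every library, and against the mean it was 0 among the latter. Of 1288 values for the 26 tested genes under the alternative fits, 1160 kept their side of the threshold with no reversal of a called value.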

Other observations

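Mks1, a gene of the ciliary transition zone that lies 67.3 kb to the right of Tspoap1, was outside the set because it was biased in more than Abl.4. Abl.2 had a mean maternal share of 0.356 there, Abl.3 of 0.988 and Abl.4 of 0.0246, so that Abl.3 and Abl.4 expressed opposite alleles. It was chosen after its values were seen, and the difference was not tested.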
